A study of Sus scrofa with 16 samples.

Results

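The comparison was of Tibetan and Yorkshire pigs that lived at the same high elevation, and it used 8 of the 16 animals of the study. TH were 4 Tibetan pigs and YH were 4 Yorkshire pigs, all castrated boars of 6 months of age from 3000 m, fed alike, from which heart tissue was taken. Lowland counterparts of both breeds from 100 m, TL and YL with 4 animals each, were used only as a further readout. The YH animals came from a population that had been brought to the highland and bred there for a single generation, whereas the TH animals were in the home range of their breed. Breed and the history of the population at this elevation therefore cannot be told apart. The members were all peaks of the TH and YH lists on chromosomes 1 to 18, with no use of their values, and numbered 258861 TH and 263514 YH peaks of 1159046 peaks in the whole series. Each list joins the peaks of a group without animal names, so no spread between animals can be given, and reads per animal are not in the lists.

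In mammals, DNA methylation sits mainly on the cytosine of CpG dinucleotides, where DNA methyltransferases copy it to the daughter strand at each cell division and TET enzymes start its removal. Methylated CpG-rich promoters are usually silent, while methylation inside active genes is common. In MeDIP-seq, an antibody against 5-methylcytosine pulls methylated fragments from sonicated DNA, and stretches where their reads pile up are called as peaks. A peak thus marks a stretch rich in methylated CpGs, and its height also depends on how many CpGs the stretch has. Heart tissue is a mixture of cardiomyocytes, fibroblasts, endothelial and other cells, and a peak does not say in which of them the DNA was methylated.

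A library in the TH list stood apart from the others. In 100907 of the 280678 TH peaks on all sequences the end was given only in a joint field, which happened for 0 peaks of the other 3 lists. None of these peaks overlapped another of them, whereas 58868 of the remaining 179771 TH peaks overlapped an earlier one, with at most 3 of them over any base. They were therefore read as the peaks of 1 animal, called the separable library here. On chromosomes 1 to 18 it held 92036 peaks, 35.6% of the TH list, which was 1.66 times the mean of the other 3 TH libraries (55608) and 1.4 times the mean of the 4 YH libraries (65878). The other 3 TH libraries had on average 0.844 times as many peaks as the YH libraries. The overlap, the counts of windows and the lowland shares are given with and without it, while the bins of 1 Mb and the distances between runs and peaks are given only with it.

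The numbers of peaks over a base were read as numbers of animals, from 0 to 4. No base had more than 4 peaks in any list. In peaks with at most 18 tags (reads within the peak), the fold enrichment often lay at whole multiples of a few steps. A small number of reads is divided there by the background of its library. Steps were ranked by the median number of peaks at their multiples, and as many were kept as a list has animals. Their number is therefore no evidence for the number of animals. The steps kept in TH were 0.755, 0.727, 0.908 and 1.03, the last with a median of 762 peaks against 235 at the next. In the separable library the median was 1738 at the step of 0.727 and 75.5 at the next. The closest pair of the 4 steps kept in YH were both 0.750 when rounded, and the last had a median of 784 against 404 at the next. Only multiples from 7 to 11 were used. On 1 step each, 28175 of 68778 weak TH peaks and 24078 of 54366 weak YH peaks could be placed. Of the overlapping pairs of these, 99.2% in TH and 99.8% in YH lay on different steps. The overlapping weak peaks that could be placed thus nearly always differed in step, as peaks of different animals would.

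The lists were similar in size and differed more in how the peaks stacked. Summed tags came to 9688700 reads in TH and 10400873 in YH. The median peak had 27.0 tags, a fold enrichment of 8.28 and a length of 992 bp in TH, against 29 tags, 7.29 and 1023 bp in YH. TH peaks covered 177 Mb and YH peaks 172 Mb, so that TH peaks were fewer but more spread out. The bases shared made up 61.7% of the TH bases and 63.4% of the YH bases, or 0.455 of all bases under either list. This share was 0.376 for the separable library alone and 0.421 for the other 3 TH libraries against YH.

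A YH peak lay under 74.3% of the TH peaks by at least 1 bp (95% Wilson interval 74.1–74.5%, counting error only), and 78.1% of the YH peaks overlapped a TH peak (77.9–78.2%). The share was 72.5% for the separable library and 75.3% for the other 3 TH libraries. Of the YH peaks, 70.1% overlapped these other 3, a comparison of 3 libraries with 4 in which the YH share can only be lower than against all 4. Peaks without a counterpart were small, with medians of 21.0 tags in both lists, 840 bp in TH and 835 bp in YH. The medians of peaks with a counterpart were 29 tags and 1056 bp in TH, and 32.0 tags and 1097 bp in YH. Overlap rose with the number of tags in both breeds, from 53.7% of TH and 51.9% of YH peaks with 14 tags or fewer to 84.9% and 93.6% with 100 or more. The fold enrichment did not order the peaks in this way, since overlap below its lower quartile and above its upper quartile was 72.6% and 80.9% in TH, and 81.8% and 80.2% in YH.

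**Figure D1:**
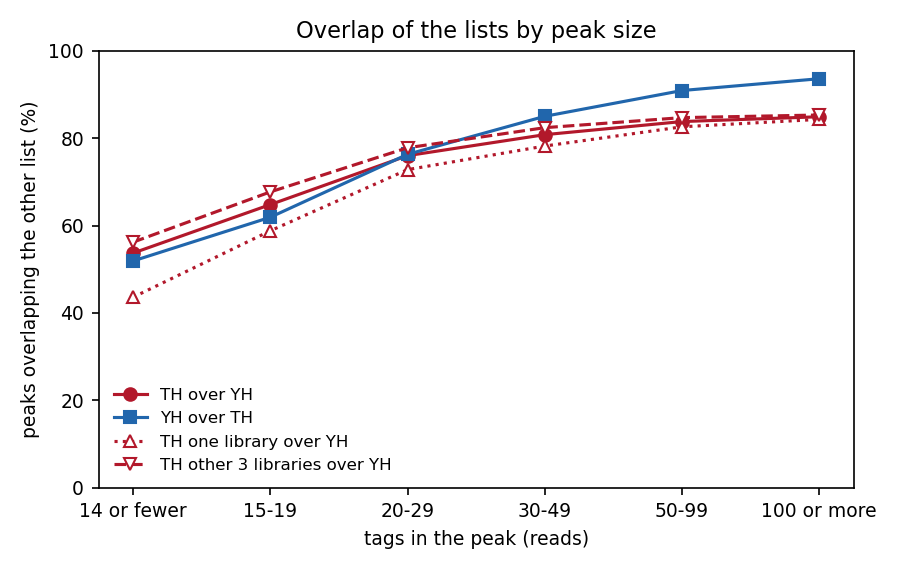
The share of peaks that overlapped the list of the other breed (%, vertical axis) is plotted by the tags in the peak (reads, horizontal axis). Filled symbols and solid lines are whole lists, and open symbols are the separable TH library ("one library") and the other 3 TH libraries. All 4 lines rise, and at 100 tags or more YH peaks reach 93.6% while the TH lines lie between 84.3% and 85.3%.

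Strong peaks that the other breed lacked were counted next. Among peaks with at least 100 tags, 1878 TH peaks (15.1%) and 842 YH peaks (6.39%) overlapped no peak of the other breed. These were often peaks of single animals. No other peak of the own list lay under 42.0% of the 1878 TH peaks and 48.7% of the 842 YH peaks, against 8.07% and 8.15% of the strong peaks with a counterpart. The separable library contributed 863 of the 1878 TH peaks. Without it 1015 peaks of the other 3 TH libraries (14.7%) and 1600 YH peaks (12.2%) had no counterpart, where again 3 libraries were set against 4. TH strong peaks overlapped YH in 51.8% of cases when they were alone in their own list and in 99.2% when at least 3 other TH peaks lay under them, and the values in YH were 71.0% and 99.3%. Of the 1878 TH peaks, 48.2% overlapped a TL peak, 56.4% a YL peak and 28.8% neither. Of the 842 YH peaks, 71.0% overlapped a YL peak, 49.5% a TL peak and 20.2% neither. Among strong TH peaks with a counterpart the shares were 92.1% for TL, 95.4% for YL and 1.63% for neither. Among those of YH they were 96.3% for YL, 92.7% for TL and 1.30% for neither. The YL list was the larger, with 305654 peaks against 240851 in TL.

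Windows of 500 bp were then counted by the peaks over base 250 of each. A peak of either breed lay over 479418 windows, and at 78.9% of these the breeds differed by at most 1 peak. More TH than YH peaks were found at 38.7% of the windows, more YH peaks at 42.6% and equal numbers at 18.8%. Windows with a lone peak of 1 breed made up 40.8% of the total. Peaks of all 4 animals were found at 20292 windows in TH and at 45306 in YH. Both breeds had 4 peaks at 12709 windows, which were 62.6% of those TH windows but 28.1% of those YH windows. The most common partner of 4 YH peaks was 3 TH peaks, at 17361 windows.

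**Figure D2:**
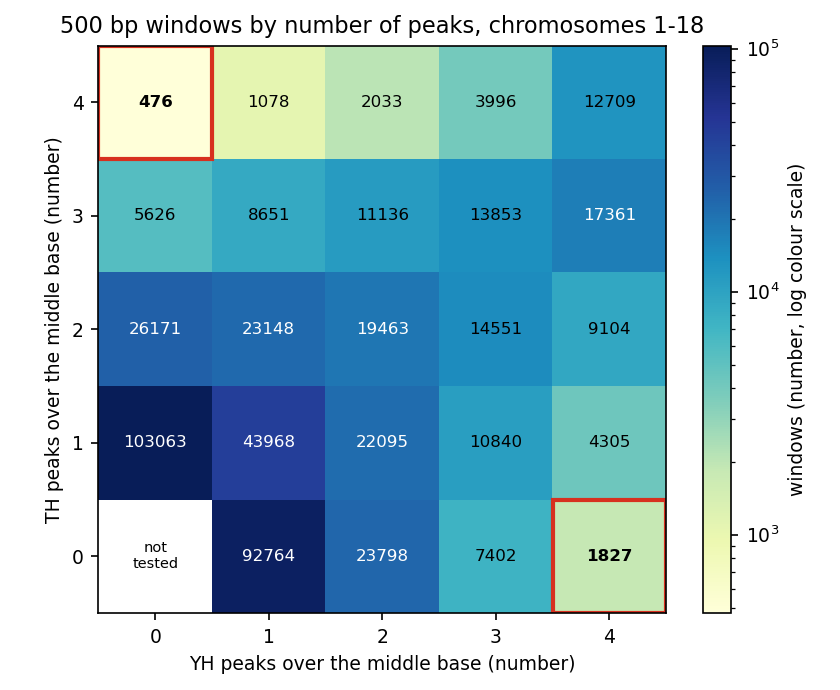
Windows of 500 bp on chromosomes 1 to 18 are counted by the number of TH peaks (vertical axis) and YH peaks (horizontal axis) over the middle base, with the number of windows written in each cell and shown on a log colour scale. The red frames mark 4 peaks against 0, with 476 windows on the TH side and 1827 on the YH side.

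The only split of 8 animals that passed 0.05 in a single window was 4 peaks against 0, with p = 0.0286 in Fisher's exact test (two-sided), and 2303 windows had it, or 0.480% of those tested. On the TH side there were 476 windows (0.0993%) and on the YH side 1827 (0.381%), so that 20.7% were Tibetan (95% Wilson interval 19.1–22.4%, counting error only, with neighbouring windows counted separately). After Benjamini-Hochberg adjustment over all tested windows the exact p was 1.00, and 0 windows passed, against 2303 at an unadjusted p under 0.05. With 4 animals against 4, no p can be smaller than 0.0286, and adjustment could be passed only if 57.1% of the tested windows had this split. The adjusted p therefore says nothing about single windows, which are described as a set. Of all windows with 4 TH peaks, 2.35% had 0 YH peaks, and of all windows with 4 YH peaks, 4.03% had 0 TH peaks. The direction changed with a limit on the fold enrichment but not with a limit on the tags. With peaks at or above the median fold enrichment of both lists together (7.73), which kept 149491 TH and 112143 YH peaks, 714 windows were left and 54.9% were Tibetan. With peaks of at least 20 tags, which kept 180595 TH and 198919 YH peaks, 11.9% of 2009 windows were Tibetan.

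The separable library took part unevenly in the TH numbers. It was among the peaks at 96.1% of the 56627 windows with 3 TH peaks, whereas it gave the only peak at 38.1% of the windows with 1 TH peak. Without it, 3 TH peaks against 0 YH peaks were found at 791 windows (0.179% of 441675) and 0 against 4 at 3774 windows (0.854%), which is a Tibetan share of 17.3%. With 3 TH libraries set against 4 YH libraries, neither count can fall, so their rise in itself shows nothing. The separable library had a peak at 1947 of these 3774 windows (51.6%). The number of peaks per library moved with these counts, since the other 3 TH libraries had fewer peaks than the YH libraries, and its part in the result was not tested.

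YH-side windows outnumbered TH-side windows on 18 of 18 chromosomes, with and without the separable library. The share of tested windows with 4 peaks against 0 ranged from 0.375% on chromosome 18 to 0.566% on chromosome 12. The Tibetan share ranged from 11.8% on chromosome 6, with 20 TH-side and 149 YH-side windows, to 28.9% on chromosome 16, with 22 and 54. No chromosome thus carried the difference alone.

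**Figure D3:**
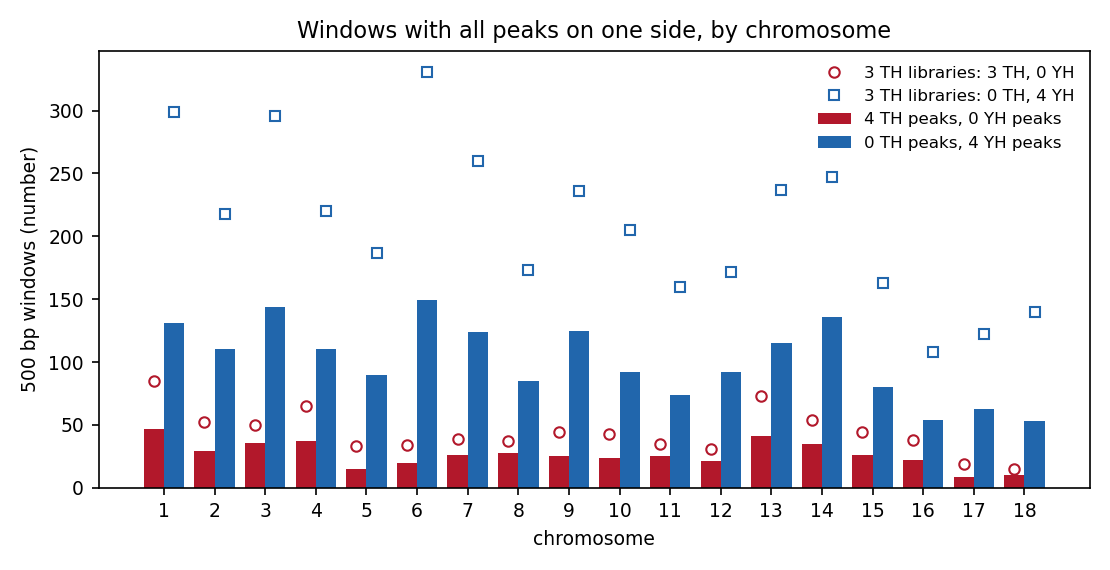
The number of 500 bp windows with all peaks on one side (vertical axis) is plotted by chromosome (horizontal axis). Bars show 4 peaks against 0 in either direction, and open symbols show the counts with only the other 3 TH libraries, which cannot be lower than the bars. Blue exceeds red on each chromosome in both counts.

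Within chromosomes the windows were scattered. Of 2456 bins of 1 Mb with a tested window, 1074 (43.7%) held at least 1 window with 4 peaks against 0, and 125 held both directions. Bins with at least 5 such windows numbered 88 and held 24.8% of the windows. The fullest bin was on chromosome 6 from 30000001 to 31000000, with 3 TH-side and 11 YH-side windows. The bin with most TH-side windows among the 10 fullest was on chromosome 10 from 10000001 to 11000000, with 8 TH-side and 3 YH-side windows. On chromosome 12, the neighbouring bins from 57000001 to 59000000 held 11 windows each, of which 9 and 11 were on the YH side. Neighbouring windows under the same peaks were counted separately in these bins. A single stretch of such windows gave 6 of the 8 TH-side windows of the bin on chromosome 10. Single stretches likewise gave 6 of the 9 and 7 of the 11 YH-side windows on chromosome 12.

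The outer 10% at each chromosome end held 30% of all tested windows. They held 23.7% of the TH-side windows (20.1–27.8%) and 32.4% of the YH-side windows (30.3–34.6%). Windows with 4 peaks in both breeds lay there more often, at 39.9%. In the outer 5%, which held 16.6% of the tested windows, the shares were 10.1% of the TH-side windows, 14.8% of the YH-side windows and 25.6% of those with 4 peaks in both breeds. Among these classes, the TH-side windows were thus the least frequent at the ends under both widths.

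Joined with their neighbours, the windows formed 348 TH-side and 1245 YH-side runs. A single window made up 71.8% of the TH-side and 65.6% of the YH-side runs, and 6 and 28 runs had at least 4 windows. For 64.4% of the TH-side runs (59.2–69.2%) no peak of the run overlapped any peak of the other breed, against 50.9% of the YH-side runs (48.1–53.7%). The remaining runs lay beside or at the edge of a peak that the other breed also had. The median distance from a run to the nearest peak of the other breed was 2536 bp on the TH side and 405 bp on the YH side, and it exceeded 10000 bp for 61 TH-side (17.5%) and 135 YH-side runs (10.8%).

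The longest TH-side run spanned 3000 bp on chromosome 10 from 10063501 to 10066500. Its 4 peaks had 104, 129, 226 and 295 tags, of which the peak with 295 was that of the separable library, and the nearest YH peak was 12217 bp away. Each lowland list had 1 peak there. The next, of the same length, lay on chromosome 12 from 25396001 to 25399000 with 109, 143, 219 and 233 tags, and both lowland lists had 3 peaks. The third, on chromosome 3 from 11381501 to 11383500, had 52, 87, 98 and 137 tags, with 0 TL peaks and 1 YL peak. The other 2 of the 5 longest were on chromosome 4 from 136797001 to 136799000 and on chromosome 8 from 76699501 to 76701500, with 43 to 109 and 51 to 74 tags. The peaks of these 5 runs had to be long, since the runs were chosen by their length. Their enrichment was low, between 3.40 and 7.95, against the TH median of 8.28 over peaks of all lengths.

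The longest YH-side run spanned 4500 bp on chromosome 7 from 1782501 to 1787000. Its 4 peaks had 204, 282, 283 and 291 tags, the nearest TH peak was 7735 bp away, and 3 TL and 2 YL peaks lay there. A run of 3500 bp on chromosome 12 from 58465001 to 58468500 had 151, 154, 161 and 177 tags, with 1 TL and 2 YL peaks. Another of 3500 bp on chromosome 7 from 4376501 to 4380000 had 140, 151, 156 and 160 tags, with 2 TL and 3 YL peaks. The other 2 of the 5 longest, on chromosome 12 from 57929001 to 57932000 and on chromosome 4 from 6949501 to 6952500, had peaks that also overlapped TH peaks beyond the run. The enrichment of the peaks of these 5 runs was again low, between 2.88 and 5.09. No gene is given for these runs, since the annotation of the build of the lists was not used here.

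The peaks at TH-side windows had fewer tags and were shorter than those at YH-side windows, while their fold enrichment was higher, with medians of 9.31 and 6.95. At windows with 4 TH and 0 YH peaks the median TH peak had 24.0 tags and 1010 bp, against 39.0 tags and 1315 bp where YH had 4 peaks as well. For YH the medians rose from 35.0 tags and 1230 bp where TH had 0 peaks to 47.0 tags and 1360 bp where TH had 4. Tags thus rose with each further peak of the other breed in both lists. The fold enrichment did not rise with each further peak. TH medians were 9.31 at 0 and 9.03 at 4 YH peaks. YH medians were 6.95 at 0 TH peaks, 6.78 at 2 and highest at 4, with 7.98. The rise of the tags was present in the separable library, from 29 to 52.0, and in the other 3, from 22.0 to 35.0.

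**Figure D4:**
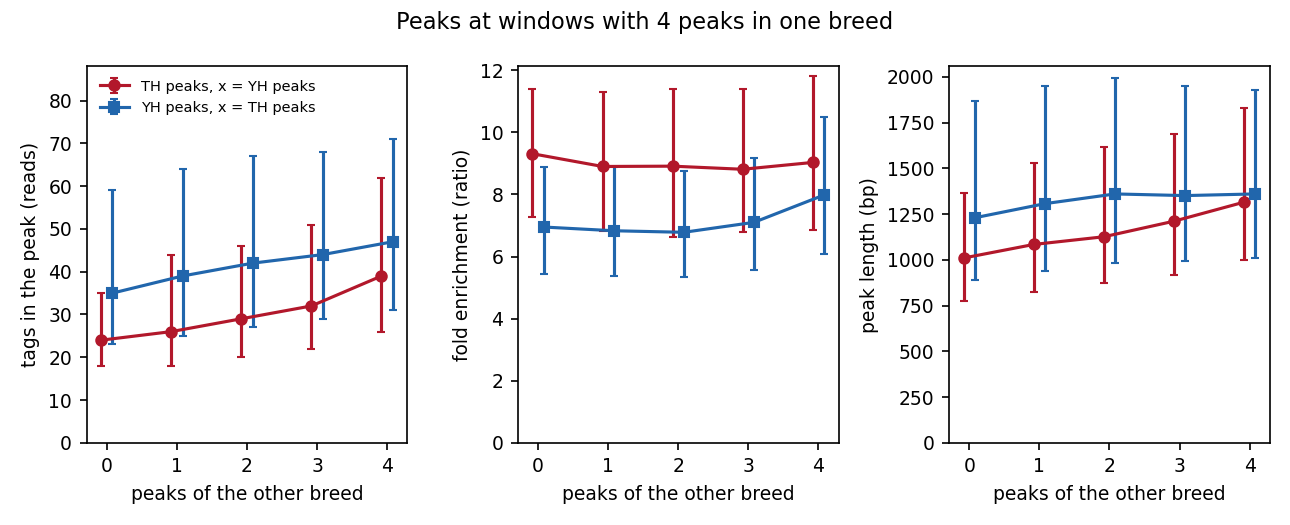
Tags (reads), fold enrichment (ratio) and length (bp) of the peaks at windows with 4 peaks in one breed are plotted by the number of peaks of the other breed there (horizontal axes). Points are medians and bars run from the lower to the upper quartile. Tags rise from 24.0 to 39.0 in TH and from 35.0 to 47.0 in YH, while the medians of the enrichment stay between 8.81 and 9.31 in TH and between 6.78 and 7.98 in YH.

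The lowland animals of both breeds, which played no part in choosing the windows, had more Yorkshire than Tibetan peaks except at the TH-side windows. TL and YL held 240851 and 305654 peaks, and between them 0.0872% of the windows with a peak of either had 4 TL and 0 YL peaks and 0.673% had the reverse. At all tested windows of the highland comparison, YL exceeded TL at 39.8% and TL exceeded YL at 17.4%. At the YH-side windows YL exceeded TL at 65.4% and TL exceeded YL at 14.6%, with means of 2.45 and 1.34 peaks. At the TH-side windows the shares were 31.9% and 36.1%, with means of 1.5 YL and 1.63 TL peaks. Of the 476 TH-side windows, 3 had 4 TL and 0 YL peaks and 2 the reverse, and of the 1827 YH-side windows 92 had 4 YL and 0 TL peaks and 0 the reverse.

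The mean of TL minus YL peaks was -1.11, -0.903, -0.675 and -0.406 at 4, 3, 2 and 1 more YH than TH peaks, and -0.450 at equal numbers. At 1, 2 and 3 more TH peaks it was -0.230, -0.260 and -0.208, with no steady rise. It was above 0, at 0.126, only in the class of 476 windows with 4 TH peaks against 0. Among windows with at least 3 peaks against 0, which took in 6102 TH-side and 9229 YH-side windows, TL exceeded YL at 27.8% and 14.6% and YL exceeded TL at 39.4% and 62.3%. The greater share of TL at the TH-side windows was thus turned under this limit. Without the separable library, TL exceeded YL at 35.0% of the 791 windows with all 3 other TH peaks against 0. It did so at 14.5% of the 3774 windows with 0 of these against 4 YH peaks. YL exceeded TL at 32.5% and 63.6% of them. The call with all 4 TH libraries to set beside these is that of 4 peaks against 0. Windows under the same peak are not independent, and no test was made over them.

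**Figure D5:**
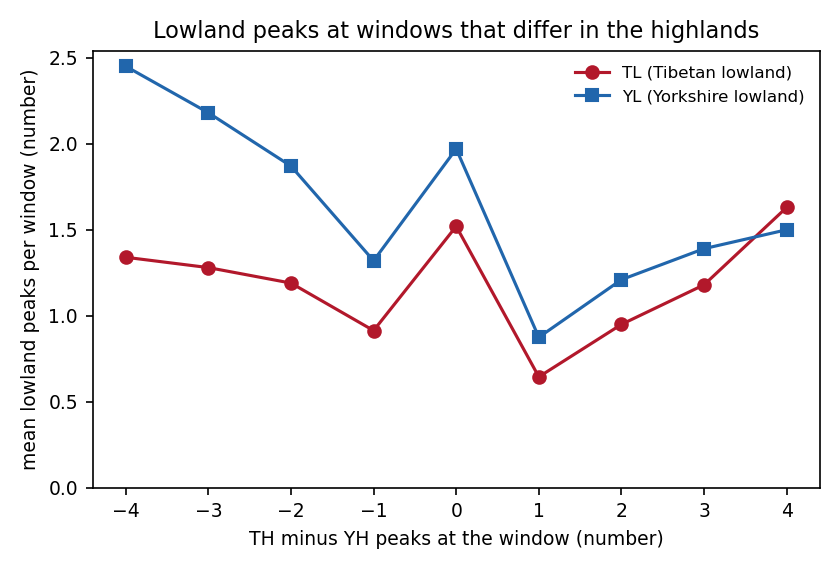
The mean number of lowland peaks per window (vertical axis) is plotted for TL and YL by the number of TH minus YH peaks at the window (horizontal axis). YL lies above TL from -4 (2.45 against 1.34) to 3, and TL lies above YL only at 4 (1.63 against 1.5), where the class has 476 windows.

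Genes could be described only at windows that the study paired with a gene in its supplementary list for TH and YH, of which a part with 1998 windows was used here. Of these, 169 on chromosomes 1 and 10 to 14 carried a symbol, for 112 genes, and 111 gene IDs matched RefSeq. The study chose these windows by read counts of the same libraries, so the numbers of peaks there are no independent evidence of a direction. At 71 of the 169 windows (42.0%) neither breed had a peak over base 250. At the other 98, TH had more peaks at 40, YH at 54 and both the same number at 4. Among the 23 promoter windows TH had more peaks at 5 and YH at 9, and among the 119 intron windows at 26 and 40. At the 17 windows that the list marks TTR the numbers were 7 and 3, at the 9 coding windows 2 and 1, and the single 5′-UTR window had more YH peaks. The breeds differed by at least 3 peaks at 29 windows, 9 with more TH and 20 with more YH peaks. Over all tested windows this difference was found at 7180 with more TH and 13534 with more YH peaks, so that 34.7% were Tibetan.

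TH had at least 3 more peaks at windows of 9 genes. At the promoter window of FOXO1, a transcription factor restrained by insulin signalling, on chromosome 11 from 15692001 to 15692500, 3 TH peaks with 15, 17 and 28 tags stood against 0 YH peaks (exact p = 0.143). TL had 4 peaks there and YL had 0. PDSS2, which encodes a subunit of the enzyme that builds the side chain of coenzyme Q, had 4 TH peaks with 15, 16, 35 and 41 tags and a single YH peak with 14 tags at an intron window on chromosome 1 from 82664001 to 82664500, and again 4 TL peaks and 1 YL peak. Both genes thus had more Tibetan than Yorkshire peaks in the lowlands as well. PRKG1, a cGMP-dependent kinase that relaxes vessel muscle, had 3 TH and 0 YH peaks with 16, 18 and 28 tags on chromosome 14 from 106976001 to 106976500, with 1 TL and 0 YL peaks.

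SH3BGR, a gene of striated muscle, had 3 TH peaks with 55, 71 and 159 tags at an intron window on chromosome 13 from 213330501 to 213331000, where YH had 0, TL 2 and YL 0. APP, the amyloid precursor, had 3 TH peaks with 31, 32 and 45 tags over coding sequence on chromosome 13 from 199306001 to 199306500, against 0 YH, 2 TL and 1 YL peaks. TNFSF10, a ligand of death receptors, had 3 TH peaks of 14 to 17 tags and 0 peaks in the other 3 groups on chromosome 13 from 119883001 to 119883500. The nucleoside diphosphate kinase gene NME2 had 3 TH and 0 YH peaks at its promoter window, with 2 TL and 3 YL peaks. An intron window of SPATA17 also had 3 TH and 0 YH peaks, and both lowland lists had 0. The separable library was among the TH peaks at 8 of the 9 windows with at least 3 more TH peaks, all but that of SPATA17. Without it, FOXO1, PRKG1, SH3BGR, APP, TNFSF10 and NME2 each had 2 TH peaks and PDSS2 had 3.

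Windows with more YH peaks were more numerous and included the 6 with 4 YH peaks against 0 (exact p = 0.0286 each before adjustment), while 0 had 4 TH peaks against 0. Over all tested windows these splits made up 0.381% and 0.0993%. UBE2E2, a ubiquitin-conjugating enzyme gene, had them at neighbouring intron windows on chromosome 13 from 11761501 to 11762500, under peaks of 23, 35, 36 and 41 tags, with 1 TL and 4 YL peaks. KIAA1143 had them at a promoter window on chromosome 13 from 30811501 to 30812000, with 20, 25, 29 and 37 tags, and there TL had 3 and YL 2 peaks. LHPP, a phosphatase gene, had them on chromosome 14 from 145453501 to 145454000, with 34, 64, 91 and 103 tags and 2 peaks in each lowland list. The protegrin gene NPG3 had 2 such windows, on chromosome 13 from 34213501 to 34214000 and from 34215001 to 34215500, under the same peaks of 61, 63, 76 and 170 tags, with 0 TL and 3 YL peaks. The windows between them had 1 and 2 TH peaks against the same 4 YH peaks and 0 TL peaks, and the TH peaks also touched other bases of the second window.

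SMAD2, a mediator of TGF-beta signalling, had 4 YH peaks with 22, 24, 30 and 32 tags and a single TH peak with 20 tags, that of the separable library, at an intron window on chromosome 1 from 106962501 to 106963000. The lowland lists had the same split, with 1 TL and 4 YL peaks. SCCPDH had 4 YH peaks and 1 TH peak at 3 intron windows on chromosome 10 between 21663001 and 21666000, and the 4 YH peaks at the first had 33, 38, 51 and 58 tags. Both lowland lists had 4 peaks at the first 2 of these windows, and at the last TL had 1 and YL 3. CHUK, a kinase of NF-kappa-B signalling, had 3 YH peaks with 20, 22 and 28 tags and 0 TH peaks on chromosome 14 from 120810001 to 120810500, while in the lowlands TL had 4 and YL 1. The hepatic lipase gene LIPC had 3 YH peaks with 18, 22 and 48 tags against 0 in TH and TL and 1 in YL. At a split of 3 against 0 or 4 against 1 the exact p was 0.143, so none of these windows was separated alone.

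The same split of 3 YH against 0 TH peaks was found for the serotonin receptor gene HTR2A, the Mediator subunit gene MED27, MYRIP, OLFML2A, WIPF2, a further window of NPG3 and a further window of SPATA17, and another NPG3 window had 4 against 1. At HTR2A, MED27 and this further window of NPG3, 2 TH peaks touched the window away from base 250, as did 1 at that of SPATA17, and 1 YH peak touched the window of NME2. Of the 20 windows with at least 3 more YH peaks, YL exceeded TL at 15, TL exceeded YL at 2 and they were equal at 3. Over all tested windows YL exceeded TL at 61.1% of those with 3 more YH peaks and at 65.4% of those with 4 more. Of the 9 with at least 3 more TH peaks, TL exceeded YL at 5, YL exceeded TL at 2 and they were equal at 2. Over all tested windows with 3 more TH peaks, TL exceeded YL at 28.0% and YL exceeded TL at 40.3%.

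Genes that the study singled out were looked at next. Of the 23 such genes that were looked up, 12 had a window in the part of the list used here, and the others were not analysed here. TH had more peaks at 5, YH at 5 and neither at 2. Among these 12, FOXO1 and SMAD2 were the only ones with a difference of at least 3. IGF1R, the receptor of insulin-like growth factor 1, had 3 TH and 4 YH peaks. BCKDHB, a subunit of the complex that breaks down branched-chain amino acids, had 3 and 1, and ICA, whose gene ID RefSeq names TF, had 3 and 2. STAT5B and EPHX2 had 1 TH peak against 0, and ERG and FGFR2 had 0 against 1. The windows of MAP2K1 and GRB2 had 0 peaks of either breed over base 250.

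The gene lists were counted beside all 169 windows, of which 40 had more TH peaks, 54 more YH peaks, 4 equal numbers and 71 none. Insulin, IGF and FoxO signalling had 18 windows for 13 genes, of which 5 had more TH peaks, 6 more YH peaks and 7 none. Vessel growth and tone had 14 windows for 11 genes, of which 5 had more TH peaks, 3 more YH peaks and 6 none. Mitochondria, redox and fuel metabolism had 23 windows for 21 genes, of which 4 had more TH peaks, 7 more YH peaks, 1 equal numbers and 11 none. The 4 muscle genes had 10 windows, of which 4 had more TH peaks, 1 more YH peaks and 5 none. The median difference was 0 in each list and over all 169 windows.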

How the data were processed

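Heart DNA of 4 TH, 4 YH, 4 TL and 4 YL pigs was measured by MeDIP-seq. The authors trimmed reads with FASTX (0.0.13), mapped them to Sscrofa10.2 (Ensembl 69) with Bowtie (0.12.8), called peaks with MACS (1.4) at a DiffScore of at least 50 and deposited 1 list per group. The deposited tags are unnormalized counts of reads per peak, the deposited fold enrichment is MACS's ratio of a peak to its background, and positions are in bp, with peak ends taken from the joint start and end field. Depth per animal is not in the lists, so intervals cover counting error only.

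Chromosomes 1 to 18 were used. The members, genes and gene lists were chosen with earlier results of these data known. Peaks over base 250 of each 500 bp window were counted, and windows with 4 peaks against 0 were compared by Fisher's exact test (two-sided), with Benjamini-Hochberg adjustment over windows with at least 1 TH or YH peak. Overlap meant at least 1 bp, runs were neighbouring windows with the same direction, and chromosome lengths were the largest peak ends. Genes were named at windows paired with a symbol in the study's list: those it singled out, and every other gene where TH and YH differed by at least 3 peaks. A few windows that met this rule are counted but not reported here by name. Longest runs were ordered by length, then tags. The reading of peaks as animals and the separable library came after the data were seen. The functions were tested on simulated data, in Python (3.11.15) with NumPy, pandas and SciPy. Alternatives changed the base counted, the limit of the call, the grid, the chromosomes, the minimum of tags or fold, the size of the lists, the overlap, the gap in runs, the width of the ends and the libraries used.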

Additional observations from a re-analysis of the deposited data

Results flagged for a closer look

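In the TH list, 100907 peaks were listed without an end value of their own, against 0 in the YH list. These peaks did not overlap one another, and on chromosomes 1 to 18 they numbered 92036. No other result was tested for samples that lie far from their group, since the peaks of the other animals carry no names.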

How the results depend on the processing

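No paired analysis was possible because the peaks carry no animal names, so that TH1 could not be set beside YH1, and for the same reason only 1 animal could be left out. From 2303 windows, the count moved to 1387 with the whole window covered, 15331 with at least 3 peaks against 0, 20714 with a difference of at least 3 peaks and 714 with peaks at or above the median fold. The Tibetan share of 20.7% became 16.7%, 39.8%, 34.7% and 54.9% under these 4 settings, 23.2% with any base of the window and 11.9% with at least 20 tags. It thus changed its direction only with the median fold, a setting that kept more TH than YH peaks. A grid moved by 250 bp, chromosome X, equal numbers of peaks and runs in place of windows left the count within 1.5 times and the share within its interval. Equal numbers meant 258861 peaks in each list, so that only the weakest of the 263514 YH peaks were left out. The libraries within the lists were not made equal. The overlap of TH peaks (74.3%) became 70.6% at 50% of both peaks, 73.3% by summit, 75.9% with at least 20 tags, 58.2% at the median fold and 73.8% with equal lists. That of YH peaks (78.1%) became 74.5%, 76.6%, 76.9%, 72.8% and 78.5%, and 77.9% with chromosome X. With the outer 5%, 10.1% of TH-side and 14.8% of YH-side windows lay at the ends. At least 3 peaks against 0 gave 27.8% of TH-side windows with more TL than YL peaks and 39.4% with more YL, the reverse of 36.1% and 31.9% at 4 against 0. Without the separable library there were 4565 windows, a count that cannot fall with 1 library fewer, and 17.3% were Tibetan. The overlaps were then 75.3% and 70.1%, runs of 1 window made up 72.2% and 61.1%, the ends held 21.6% and 33.1%, and TL exceeded YL at 35.0% and 14.5%. The causes of these moves were not tested. The lists give no spread between animals, and with 2303 windows at p = 0.0286 in the exact test, the smallest that 4 against 4 can give, none passed adjustment.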
